A study of Mus musculus with 8 samples.

Results

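Collagen genes were examined for binding of RelA (p65), an NF-kB subunit that activates transcription, in primary fibroblasts taken from wild-type C57BL/6 mouse embryos. The genes were chosen by symbol alone: protein-coding genes of the RefSeq table of GRCm38.p6 on chromosomes 1 to 19 whose symbol reads Col, digits, a, digits. The rule, set with earlier results of these data known, found 42 collagen genes among 20661 protein-coding genes on those chromosomes. The cells were starved of serum and given TNF, an inflammatory cytokine, at 10 ng/ml for 0.5 or 3 h, or were taken at 0 h, with 2 RelA ChIP-seq libraries per time. With 2 libraries of input DNA this gave 8 libraries, all of 1 strain and genotype. The values analysed are 1 list of 9829 peak intervals on mm10 (9688 of them on chromosomes 1 to 19), with no height, score or library attached. For that reason no value per library, depth, replicate spread or difference between the 3 times can be given, and no test across libraries was possible. The list holds no expression levels either, so the fibroblast label was not checked against marker genes. A peak was counted at a gene when its centre lay inside the gene or within a stated distance of its ends.

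Collagens are proteins of the extracellular matrix whose chains wind into a triple helix. Fibrillar collagens form the tensile fibres of skin, bone and cartilage, type IV collagen forms the sheet-like network of basement membranes, and the remaining types decorate fibrils, form microfibrils or span the cell membrane. Fibroblasts are a main source of types I, III, V and VI. TNF acts through NF-kB and is known to lower the output of type I collagen in fibroblasts.

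RelA peaks lay at 25 of the 42 collagen genes, inside the gene or within 10 kb of it (59.5%, Wilson 95% interval 44.5 to 73.0%). Over all protein-coding genes this share was 23.7%. A peak centre lay inside 20 collagen genes (47.6%), against 15.0% of all protein-coding genes. Within 1 kb the count was again 20, against 17.4%, and within 5 kb it was 23 (54.8%, interval 39.9 to 68.8%), against 20.3%. At 50 kb the count was 34 of 42 (81.0%, interval 66.7 to 90.0%), against 44.3%. The intervals here and below cover counting error only, and genes that lie close together can share a peak. Collagen genes are long, with a median of 110 kb against 17.4 kb for other protein-coding genes, and the part of these shares that goes with length is given further on. Peaks inside collagen genes had a median width of 691 bp (range 378 to 1216 bp), against 687 bp over all peaks. In 11 collagen genes 2 or more peaks lay inside (26.2%), against 4.39% of other protein-coding genes. This last comparison was not matched for length.

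The members fell into 4 tiers by distance. In 20 genes a peak was centred inside. A further 5 (Col1a2, Col6a1, Col6a5, Col7a1 and Col16a1) had none inside but at least 1 within 10 kb, and 9 more (Col1a1, Col2a1, Col3a1, Col6a2, Col6a4, Col9a2, Col11a1, Col11a2 and Col17a1) had their nearest peak between 10 and 50 kb away. The last 8 (Col4a3, Col4a4, Col5a2, Col9a1, Col9a3, Col10a1, Col20a1 and Col22a1) had none within 50 kb. Around the 10 kb limit, the nearest peak lay 7.11 kb from Col6a1 and 8.41 kb from Col6a5 on the near side, and 10.4 kb from Col9a2 and 11.9 kb from Col11a1 on the far side.

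**Figure D1:**
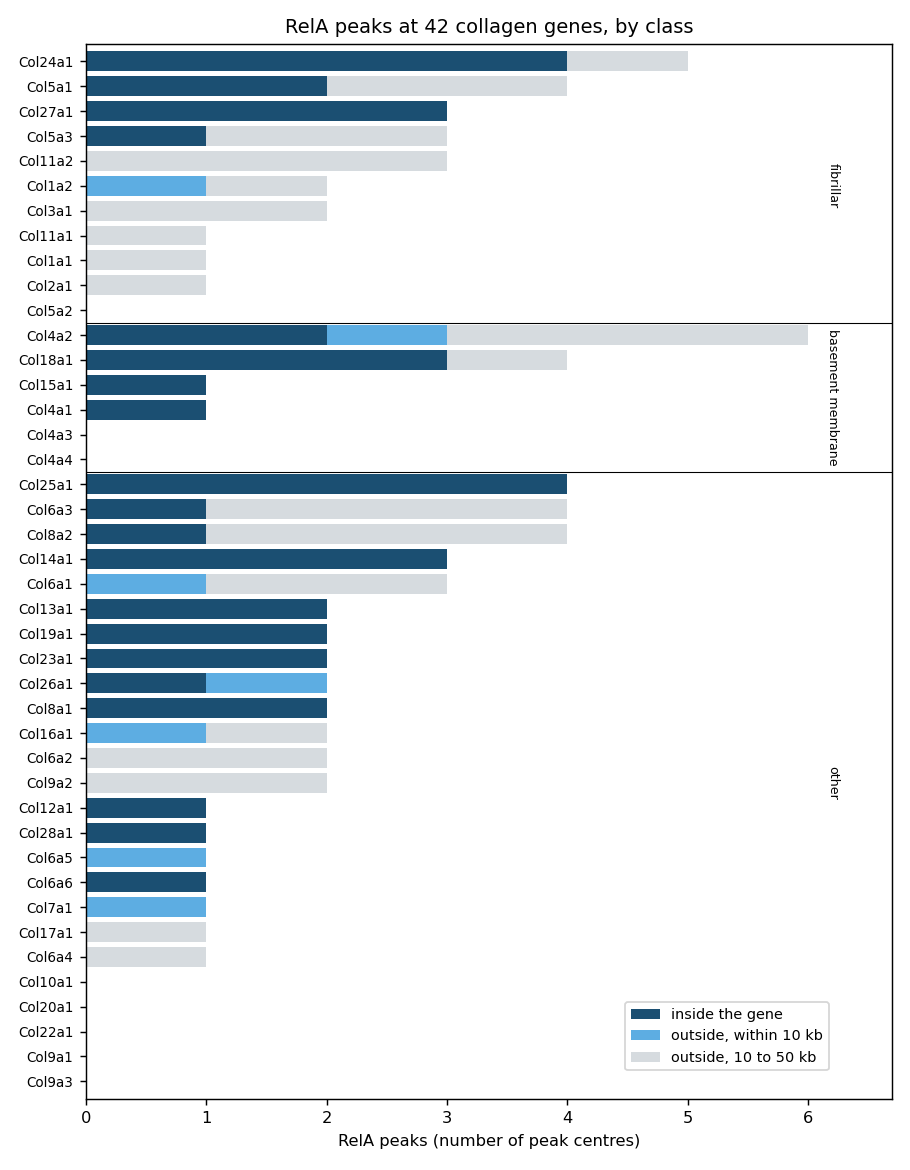
Number of RelA peak centres (horizontal axis) at each of the 42 collagen genes, in 3 classes. Dark bars count peaks inside the gene, light blue bars those outside within 10 kb, and grey bars those from 10 to 50 kb. Col4a2 has the most peaks, 6, and 8 genes have none.

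Few collagen genes had a peak at their start, and Col5a1 was the only one within 1 kb. Col5a1 encodes a chain of type V collagen, which sits in the core of type I fibrils and limits their diameter. A peak of 732 bp on chromosome 2, from 27886016 to 27886747, was centred 0.044 kb upstream of the annotated start site and covered the promoter window (250 bases before to 50 after the start). Of the 33 collagen genes with a start site in the promoter table, it was the only 1 with a peak centre that near (3.03%, interval 0.537 to 15.3%), against 6.84% of all genes with a start site. Counting either gene end for all 42, 2 genes had a peak centre within 1 kb (4.76%, interval 1.32 to 15.8%), against 6.54% of all protein-coding genes. The other was Col13a1, a membrane-spanning collagen, whose 600 bp peak lay 0.516 kb inside its 3′ end and 140 kb from its 5′ end. Both shares were below those over all genes, which lay inside their intervals. The promoter of Col5a1 is shown because it is the only collagen promoter of 36 in the table that a peak overlapped, where 5.79% of genes with a promoter in the table had this (chr2:27886175-27886424, plus strand, GRCm38.p6, the 250 bases before the start, 5′ to 3′, RefSeq).

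Col5a1: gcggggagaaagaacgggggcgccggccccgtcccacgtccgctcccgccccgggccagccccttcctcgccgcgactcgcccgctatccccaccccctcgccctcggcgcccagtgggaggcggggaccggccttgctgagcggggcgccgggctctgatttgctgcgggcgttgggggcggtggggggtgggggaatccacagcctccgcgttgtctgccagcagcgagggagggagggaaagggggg

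The Col5a1 promoter was rich in G and C (75% of its 300 bases, against a median of 57.0% over 20084 promoters of protein-coding genes) and held 34 CG dinucleotides, against a median of 14. It held no match to the kappaB consensus, the sequence that NF-kB dimers prefer, searched on both strands. Of all promoters, 9.42% held a match. The share was 29.5% of the 1090 promoters that a peak overlapped, and 8.27% of the others. Among collagen promoters, 7 of 36 (19.4%), from 33 genes, held a match (1 each of Col4a2, Col6a4, Col9a1, Col9a2 and Col27a1 and both of Col6a2), and none of these 7 was overlapped by a peak. The AP-1 motif TGANTCA, searched on both strands, was in 7.06% of all promoters and in 1 collagen promoter, that of Col6a1. These are matches of letters in a short window and do not show a bound site.

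The promoters of 3 collagen genes show matches at starts without a peak, with the kappaB match in capitals and all other bases in lower case. They are the 250 bases before the start of Col9a2 (chr4:121039316-121039565, plus strand), which encodes a type IX chain on the surface of cartilage fibrils, of Col6a4 (chr9:106096692-106096941, minus strand), a type VI chain gene, and of Col27a1 (chr4:63215162-63215411, plus strand), a fibrillar collagen gene of cartilage.

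Col9a2: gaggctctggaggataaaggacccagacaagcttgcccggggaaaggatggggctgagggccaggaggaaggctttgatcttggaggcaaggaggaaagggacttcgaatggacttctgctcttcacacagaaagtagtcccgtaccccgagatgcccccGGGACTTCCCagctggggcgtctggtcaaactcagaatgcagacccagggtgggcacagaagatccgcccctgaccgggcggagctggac

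Col6a4: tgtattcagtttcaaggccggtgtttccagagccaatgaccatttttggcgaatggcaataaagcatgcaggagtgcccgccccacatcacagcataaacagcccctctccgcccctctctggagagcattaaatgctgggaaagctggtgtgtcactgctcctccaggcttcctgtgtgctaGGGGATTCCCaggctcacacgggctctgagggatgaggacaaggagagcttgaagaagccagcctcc

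Col27a1: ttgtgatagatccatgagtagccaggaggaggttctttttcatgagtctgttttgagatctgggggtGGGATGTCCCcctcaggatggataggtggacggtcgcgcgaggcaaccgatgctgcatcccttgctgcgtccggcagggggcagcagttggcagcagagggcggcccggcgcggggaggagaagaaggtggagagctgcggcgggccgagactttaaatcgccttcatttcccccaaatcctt

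With positions counted back from the last base shown, the match began at position -90 in Col9a2, -67 in Col6a4 and -183 in Col27a1. The nearest peak centre to the start was 10.4 kb away at Col9a2, 126 kb at Col6a4 and 1.08 kb, downstream, at Col27a1. The peak at Col27a1 (chromosome 4, 63216004 to 63216972, 969 bp) was thus close to the start but did not reach the promoter window.

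More collagen genes had a peak a few kilobases from the start. Within 5 kb of a start site, a distance chosen after the values were seen, 9 of 33 collagen genes had a peak centre (27.3%, interval 15.1 to 44.2%), against 10.1% of all genes with a start site. After Col5a1 and Col27a1, the peak centre lay 1.96 kb upstream at Col16a1, 2.28 kb downstream at Col5a3 and 2.34 kb upstream at Col1a2. It lay 3.18 kb upstream of an internal start of Col18a1, 3.55 kb downstream at Col6a3, 3.80 kb upstream at Col7a1 and 3.94 kb downstream at Col8a1. The Col7a1 peak was also 0.142 kb from the end of the neighbouring gene Uqcrc1. Within 10 kb the count was 10 (30.3%), against 13.7%, with Col6a1 added. The other 8 peaks within 5 kb had the collagen gene as their nearest protein-coding gene.

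Among the 11 fibrillar collagens, 5 had a peak inside or within 10 kb (45.5%, interval 21.3 to 72%), where other genes of their length gave 4.12 (37.5%) and the share over all genes was 23.7%. Within 50 kb 10 had one (90.9%, interval 62.3 to 98.4%), where length gave 5.99 (54.4%) and the share over all genes was 44.3%. Of the type I and III genes, which make the main fibres of fibroblasts, 1 of 3 had a peak within 10 kb and all 3 had one within 50 kb. Col1a2, the second chain gene of type I collagen, had a 614 bp peak on chromosome 6 from 4502971 to 4503584, 2.34 kb upstream of its start, and another 48.0 kb upstream. Col1a1, which encodes the major chain of type I, had a single peak within 50 kb, 40.2 kb away, and that peak lay inside Ppp1r9b. Col3a1, the type III gene, had peaks 35.3 and 41.8 kb upstream and none nearer. Its neighbour Col5a2, 24.6 kb from it, had none within 50 kb, with the nearest 98.1 kb from its end.

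The fibrillar genes with peaks inside were Col24a1, Col27a1, Col5a1 and Col5a3. Col24a1, a developmental fibrillar collagen gene of 260 kb, held 4 peaks, of which 3 stood in a row 46.1, 56.4 and 66.0 kb from the 5′ end and the last at 213 kb. Another lay 35.8 kb upstream. Col27a1 held 3 in 121 kb, at 2.48, 19.8 and 77.2 kb from its 5′ end. Besides its promoter peak, Col5a1 held 1 at 45.8 kb and had 2 upstream, at 27.6 and 38 kb. Col5a3, the third type V chain gene, held 1, and its 2 upstream peaks lay nearer to Rdh8. The cartilage collagen genes Col2a1 and Col11a2 had no peak within 10 kb, unlike Col27a1. Of other genes in the length bin of Col2a1 and Col11a2, 20.5% had one. The single peak within 50 kb of Col2a1, 36.8 kb away, was nearer to Tmem106c. The 3 peaks within 50 kb of Col11a2, which lies in the major histocompatibility region, were nearer to H2-K1 or H2-Oa, and the peak at H2-K1 was 0.261 kb from that gene's end. Col11a1 had 1 peak, 11.9 kb upstream.

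Of the 6 autosomal basement membrane collagens, 4 had a peak inside (66.7%, interval 30.0 to 90.3%), and no gene was added when the window was widened to 50 kb. Other genes of their length gave 3.14 at 10 kb and 3.82 at 50 kb. The type IV chains are encoded by gene pairs that are transcribed away from a shared start region, and the pairs differed. Col4a1 and Col4a2, the pair expressed in most basement membranes, overlap by 85 bp at their starts. Col4a1 held 1 peak, 34.6 kb from its 5′ end. Col4a2 held 2, at 80.2 and 99.2 kb, and had 6 within 50 kb, the most of any member. Of its outside peaks, 3 lay inside the neighbouring gene Rab20 and 1 inside Col4a1. The peak centre nearest to the Col4a2 start, inside Col4a1, was 34.5 kb from it. Col4a3 and Col4a4, the pair of the kidney glomerulus, overlap by 114 bp and had no peak within 50 kb. Their nearest peaks lay 110 and 76.4 kb from a gene end. Col18a1, the gene of the collagen from which endostatin is cut, held 3 peaks, at 36.5, 49.6 and 76.9 kb from its 5′ end, and Col15a1 held 1, at 43.9 kb.

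Among the 25 other collagens, 16 had a peak inside or within 10 kb (64.0%, interval 44.5 to 79.8%) and 20 within 50 kb, where length gave 10.3 and 14.1. The intervals of the 3 classes overlapped, with few genes in each, and a difference between classes was not tested. Type VI collagen forms beaded microfibrils around cells, and 4 of its 6 genes had a peak within 10 kb, where other genes of their length gave 2.28. Col6a3 held 1 near its start and had 3 beyond its 3′ end, at 12.5, 22.6 and 33.4 kb. Col6a1 had 1 peak 7.11 kb upstream, and Col6a2 had a peak of 1759 bp 20 kb upstream, the widest within 50 kb of any collagen gene. A further peak between Col6a1 and Col6a2, which lie 85.2 kb apart, was within 50 kb of both. Col6a6 held 1, near its 3′ end. Col6a5 and Col6a4 shared a peak, 8.41 kb from the former and 19.4 kb from the latter.

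The fibril-associated collagens had a peak within 10 kb in 4 of 9 genes, where other genes of their length gave 3.75. Col14a1, whose protein binds fibrils in skin and tendon, held 3 peaks, of which 2 stood close together, 52.7 and 54.8 kb from a gene end. Col19a1 held 2 and Col12a1 held 1. Col16a1 had 1 peak just upstream, and all 3 type IX genes, which belong to cartilage, had none within 10 kb. Most other genes of their length had none either. The share with a peak was 29.6% in the length bin of Col9a1 and 20.5% in that of Col9a2 and Col9a3. Of the 4 membrane-spanning collagens, 3 had peaks inside, and other genes of their length gave 2.05 with a peak inside or within 10 kb. Col25a1, the longest member at 420 kb, held 4, spread at 110, 221, 317 and 418 kb from its 5′ end, the last 1.91 kb from its 3′ end. Col13a1 and Col23a1 held 2 each. Col17a1, the hemidesmosome collagen of keratinocytes, had none within 10 kb, and its peak at 39.0 kb lay 0.719 kb from an end of Sfr1. Of the network-forming short chains, Col8a1 held 2 and Col8a2 held 1 of 1216 bp, the widest inside any member. Col8a2 had 3 more within 50 kb, all of them nearer to Trappc3 or Ago3. Col10a1, the marker gene of hypertrophic cartilage, had none within 50 kb. Col28a1 held 1, and Col26a1 held 1 and had 1 more 3.69 kb away.

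**Figure D2:**
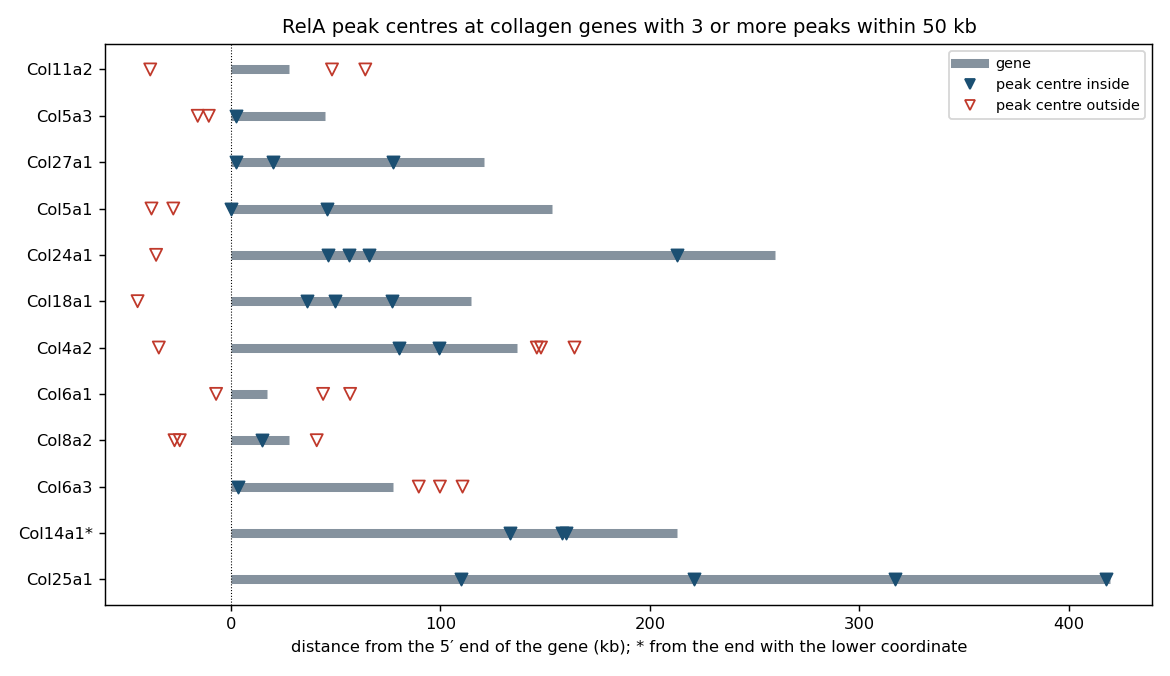
Positions of RelA peak centres (triangles) along the 12 collagen genes with 3 or more peaks inside or within 50 kb, as the distance in kb from the 5′ end of the gene, with genes as grey lines (for Col14a1, marked with an asterisk, from its end with the lower coordinate). Filled triangles are inside the gene and open ones outside. A peak of Col5a1 stands at its start, while those of Col25a1 stand from 110 to 418 kb along its 420 kb.

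Some peaks near collagens were nearer to another gene. All 38 peaks inside collagen genes were inside no other protein-coding gene. Of the 45 peaks inside or within 10 kb, 43 had the collagen gene as host or nearest gene, and 24 collagen genes kept a peak on that count, with Col7a1 lost. Of the 75 different peaks within 50 kb, 59 did, and 28 collagen genes kept a peak on that count, against 34 otherwise. Shares of this kind over all protein-coding genes are not given. Whether these nearest-gene counts are particular to collagens can therefore not be said. Inside the genes, peaks were spread along the whole length. Of the 33 peaks inside members with a known strand, 10, 9, 7 and 7 lay in 4 successive parts of equal length from the 5′ end (30.3, 27.3, 21.2 and 21.2%). In other genes of 30 kb or more the shares were 32.7, 23.1, 23.2 and 20.9% of 2959 peaks.

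Against genes of similar length the difference was smaller. Where each member was given the share of other protein-coding genes in its own length bin, the number with a peak inside or within 10 kb came to 17.5 of 42 (41.7%), and the observed 25 was 1.43 times that (1.07 to 1.75 from the interval of the share). Without regard to length the ratio was 2.52. For the fibrillar, basement membrane and other classes the ratios by length bin at 10 kb were 1.21 (0.567 to 1.92), 1.27 (0.572 to 1.72) and 1.56 (1.08 to 1.94). The classes whose interval lay above 1 changed with the window. At 50 kb the fibrillar ratio was 1.67 (1.14 to 1.81) and that of the other class 1.42 (1.08 to 1.61). For peaks inside the gene the other class stood at 1.39 (0.869 to 1.92). Peaks nearer to another gene were counted in the 50 kb ratios, for collagen genes and for the genes they were compared with. Among collagens, such peaks were the only ones of Col1a1, Col2a1 and Col11a2 and, in the other class, of Col6a4, Col7a1 and Col17a1. Over all members the interval included 1 for peaks inside the gene alone (1.35, 0.946 to 1.77) and within 1 kb (1.28, 0.897 to 1.67), and lay above 1 at 5 and 50 kb.

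By count, the difference was largest in genes of 100 to 300 kb, where the share of other genes gave 11 members. In that bin, 16 of 21 collagen genes had a peak inside or within 10 kb (76.2%, interval 54.9 to 89.4%), against 52.4% of 1759 other genes. From 30 to 100 kb it was 5 of 9 (55.6%, interval 26.7 to 81.1%) against 29.6%, and from 10 to 30 kb 2 of 8 (25%, interval 7.15 to 59.1%) against 20.5%. Of the 3 members of 300 kb or more, 2 had a peak (Col19a1 and Col25a1, not Col22a1), against 70.1%. Per length of gene, collagen bodies held 0.772 peaks per 100 kb (38 peaks in 4.92 Mb, exact Poisson 95% interval 0.546 to 1.06), against 0.478 in other genes. By class the rates were 0.956 (interval 0.459 to 1.76) in fibrillar, 0.940 (0.378 to 1.94) in basement membrane and 0.671 (0.415 to 1.03) in other collagens, with overlapping intervals. In the bin of 100 to 300 kb the rates were 0.910 and 0.532 per 100 kb, with 29 peaks in collagens. In genes of 300 kb or more they were 0.543 and 0.335, with 6 peaks in collagens. In bins below 100 kb the collagen rate was not above that of other genes, on 3 peaks in all.

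**Figure D3:**
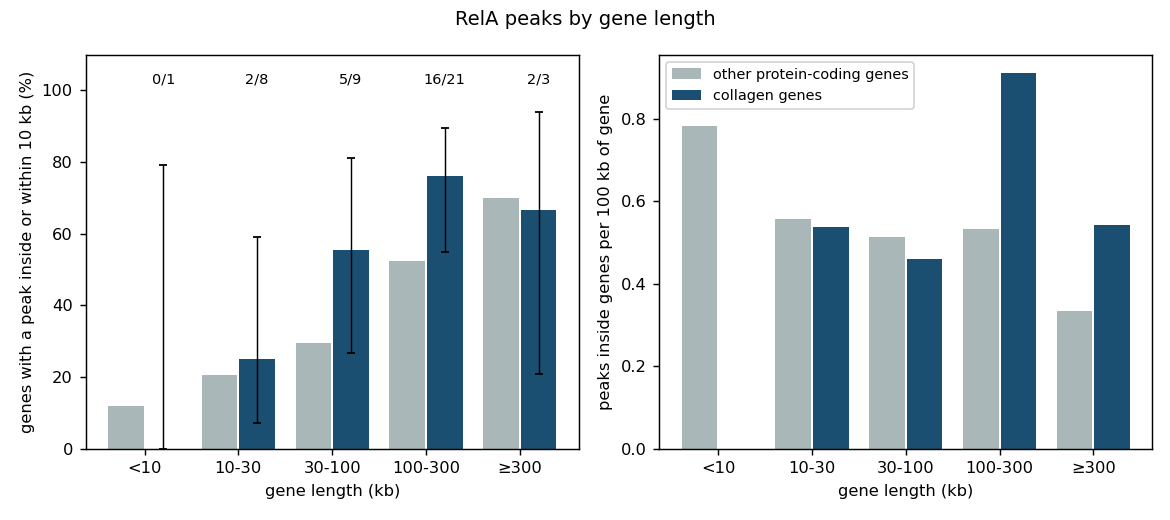
Left, percent of genes with a RelA peak inside or within 10 kb by gene length in kb, for collagen genes (dark, with Wilson 95% intervals and counts above) and other protein-coding genes (grey). Right, peaks inside genes per 100 kb of gene, where the bars for 100 to 300 kb stand at 0.910 and 0.532.

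**Figure D4:**
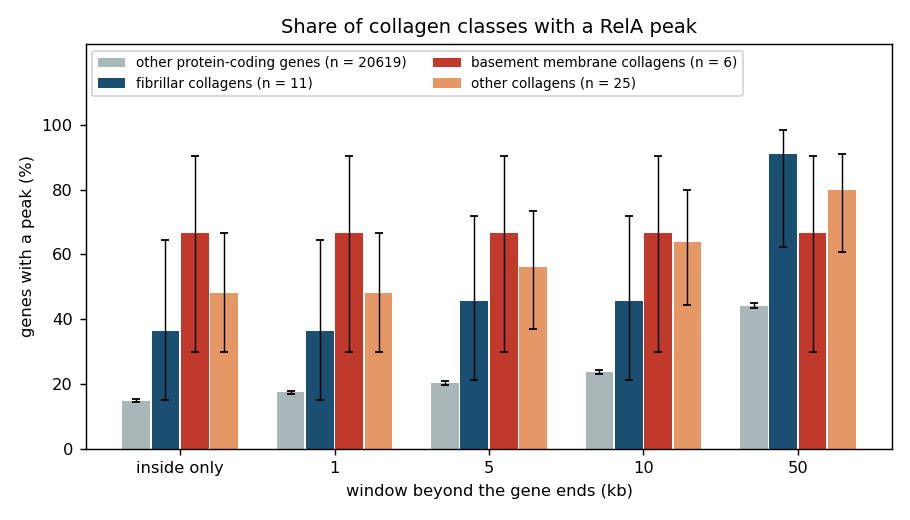
Percent of genes with a RelA peak inside the gene or within 1, 5, 10 or 50 kb of it, for 3 collagen classes and other protein-coding genes, with Wilson 95% intervals. Fibrillar collagens go from 36.4% inside to 90.9% at 50 kb, and basement membrane collagens stay at 66.7%.

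Genes that make, process and bind collagen were taken from lists written from general knowledge, with earlier results of these data known. Of 32 genes for synthesis and processing, 16 had a peak inside or within 10 kb (50%, interval 33.6 to 66.4%), where other genes of their length gave 8.78. A peak lay within 1 kb of a gene end in 4 of them (12.5%), against 6.54% of all protein-coding genes, and the collagen share of 4.76% had an interval that held 12.5%. P4ha1, which encodes a catalytic subunit of prolyl 4-hydroxylase, the enzyme that stabilises the helix, had a 932 bp peak 0.041 kb from its start (chromosome 10, 59322872 to 59323803). Loxl4, a cross-linking lysyl oxidase gene, had a 984 bp peak 0.105 kb from its start (chromosome 19, 42612420 to 42613403), and Pcolce, whose product speeds removal of the procollagen C-propeptide, had one at 0.094 kb. P3h4, named after its value was seen, had one 0.164 kb from an end. The Pcolce promoter was overlapped by its peak and, like that of Col5a1, held no kappaB match. The promoters of Loxl4 (chr19:42612807-42613056, minus strand) and P4ha1 (chr10:59323046-59323295, plus strand) are shown to set beside that of Col5a1, since both held a kappaB match (capitals) and a peak.

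Loxl4: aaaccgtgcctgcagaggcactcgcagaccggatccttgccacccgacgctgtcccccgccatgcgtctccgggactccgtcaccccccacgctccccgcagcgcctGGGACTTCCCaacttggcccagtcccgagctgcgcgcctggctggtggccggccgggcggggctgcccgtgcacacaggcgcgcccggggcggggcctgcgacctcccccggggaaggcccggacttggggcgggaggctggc

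P4ha1: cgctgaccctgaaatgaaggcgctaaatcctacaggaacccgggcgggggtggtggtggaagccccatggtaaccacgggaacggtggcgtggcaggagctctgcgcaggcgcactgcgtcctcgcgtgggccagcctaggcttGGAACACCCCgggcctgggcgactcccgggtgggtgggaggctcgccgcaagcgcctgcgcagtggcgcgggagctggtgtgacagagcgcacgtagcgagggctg

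The match in Loxl4, at position -143, has the same 10 letters as the match in Col9a2, which had no peak within 10 kb. Peaks also lay inside P4ha2, P4ha3, Plod2, P3h2, Bmp1, Tll1, Adamts2 and Loxl1, while Serpinh1, the gene of the collagen chaperone, and Lox had none within 10 kb. The genes beyond the 3 closest were named after their values were seen. Of 10 collagen receptor genes, 5 had a peak inside or within 10 kb (50%, interval 23.7 to 76.3%, against 3.46 given by length). The closest to a gene end was the discoidin receptor gene Ddr1, with a peak 0.276 kb from one of its start sites. The promoter of that start was overlapped by the peak and held no kappaB match. Of 13 matched genes for proteins that bind fibrils, 3 had one (23.1%, interval 8.18 to 50.3%, against 2.59 given by length). They were the decorin gene Dcn, with a peak inside at 4.52 kb from its end, Sparc (8.42 kb) and the lumican gene Lum (9.52 kb).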

How the data were processed

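The RelA peak list was deposited by the authors as chromosome, start and end in base pairs, 3 columns without a header. The genome mm10 and the tools MACS2, deepTools, Picard 1.13, SAMtools, Bowtie2 2.3 and cutadapt 1.9.1 are named in the submitters' processing notes. How each tool was set, whether input was subtracted and whether libraries were pooled before peak calling is not given in the sources used here. Per the labels' protocols, chromatin was fixed with disuccinimidyl glutarate and formaldehyde, which can also retain proteins bound to DNA through other proteins. Starts were converted to positions counted from 1. Genes came from the RefSeq table of GRCm38.p6, and strand, start sites and promoter sequences from a RefSeq promoter table of that build, which matched 33 of 42 collagen genes. Other genes of similar length were taken in bins with edges at 10, 30, 100 and 300 kb. Counts were made in Python 3.11.15 with pandas 2.3.3, by code tested on simulated data. Wilson intervals came from statsmodels 0.14.6 and Poisson intervals from scipy 1.17.1. Alternatives changed the window, the peak width, the overlap rule, the classes and the length matching. The symbol rule for the members and the lists were set with earlier results of these data known. All members are accounted for. Described in full are those with a peak within 1 kb of an end or 4 or more within 50 kb, and of each list the 3 genes closest to a peak.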

Additional observations from a re-analysis of the deposited data

How the results depend on the processing

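The count of collagen genes with a peak inside or within 10 kb, 25, ranged from 18 (peaks of at least the median width, 687 bp) to 34 (window of 50 kb) over its alternatives. These also included any overlap (25), merged peaks (25), chromosome X with Col4a6 (26 of 44) and close genes counted once (24 of 39). The ratio by length stayed between 1.28 and 1.62, except without length matching (2.52), and its interval included 1 inside genes alone and at 1 kb (0.897 to 1.67). The count within 1 kb of a gene end was 2. It became 1 at 0.5 kb (2.38%, against 4.89% of other genes) and 11 at 5 kb (26.2%, against 12.2%). It was 14 at 10 kb (33.3%, against 17.6%) and 1 of 33 at start sites alone (3.03%, against 6.84%). These shares were not matched for length. At 50 kb the fibrillar share rose to 90.9% and that of the other class to 80.0%. With peaks of at least the median width the fibrillar share was 27.3% (interval 9.75 to 56.6%). Fewer peaks can only lower the share in any set of genes, and that of other genes with these peaks is not given. Over all members the ratio by length with them was 1.62 (1.1 to 2.18). With the wider peaks alone, collagen bodies held 0.406 peaks per 100 kb against 0.240 in other genes, since fewer peaks were used. With no peak height, score or depth, weak and strong binding could not be told apart. No paired analysis was possible because the peak list carries no values per library.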

Other observations

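The flank of the start site was looked at after the values were seen. Within 1 kb of the start, the collagen share (3.03%, interval 0.537 to 15.3%) was not separated from that of other genes (6.84%). The Col27a1 peak, at 1.08 kb, fell just beyond that limit. The nearest peak centre lay 1 to 5 kb from a start site in 8 of 33 collagen genes (24.2%, Wilson 95% interval 12.8 to 41.0%), against 528 of 16423 other genes (3.22%). Among genes of 30 kb or more it was 8 of 27 (29.6%, interval 15.9 to 48.5%) against 3.77%. Of these 8 peaks, 4 lay upstream of the start (Col1a2, Col7a1, Col16a1 and the internal start of Col18a1) and 4 downstream (Col5a3, Col6a3, Col8a1 and Col27a1). No test was run on this pattern, since the window was set from the same peaks.

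On chromosome X, outside the rule, Col4a6 held 2 peaks and its neighbour Col4a5, the type IV chain gene altered in Alport syndrome, held none but had 2 within 50 kb.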
